A study of Mus musculus with 8 samples.

Results

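The interleukin 6 family of cytokines and its feedback inhibitors were examined in mouse spleen NK cells as 9 genes: the ligands Osm and Lif, the receptor chains Il6ra and Il6st, the transcription factor Stat3, and the inhibitors Socs1, Socs2, Socs3 and Cish. They were taken as the array probes whose RefSeq accession carries one of these symbols, which gave 12 probes of 55681 on the array and 9 of the 13607 genes tested, and all 12 probes were well above background on all 8 arrays. The genes were chosen with the differences between these same arrays in view, so their own differences are given as a description and nothing is rested on them. The tested cells were ChAT_positive pools (4 pools), NK cells positive for an eGFP reporter of Chat, whose enzyme product synthesises acetylcholine, and they were set against ChAT_negative pools (4 pools) of NK cells without reporter signal. Both came from spleen by magnetic enrichment and sorting, and each pool held cells of 2 to 4 mice; age, strain and any treatment are not given in the sources used here. RNA of a pool was measured on 1 one-colour array. Nothing says that the pools of a group came from separate mice, so p-values measure the spread between these pools, which may be technical.

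Cytokines of this family signal through gp130, the chain that Il6st encodes, together with a ligand-specific partner. Receptor-bound JAK kinases then activate STAT3, which moves to the nucleus. SOCS proteins and CIS (the product of Cish) are induced by STATs and switch the signal off at the receptor or the kinase. In NK cells Cish and the SOCS genes are also known as feedback genes of interleukin 2 and interleukin 15, which act through STAT5. Oncostatin M and LIF are among the ligands of the family that activated lymphocytes and myeloid cells can produce.

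On these arrays 50.2% to 63.2% of spots were well above background and 0 non-control spots were saturated. All 12 NK markers were well above background on every array. Chat itself had a log2 signal of 3.75 ± 0.25 in ChAT_positive and 2.65 ± 0.34 in ChAT_negative pools (SD, n = 4 each), so the ChAT_negative pools also held Chat signal. The ChAT_positive arrays shared 1 slide and 1 scan and the ChAT_negative arrays another, so an effect of slide cannot be told apart from that of the reporter group. Levels are log2 of the processed intensity, where 0 is the array's 75th percentile over probes; a level is comparable between arrays for 1 probe and not between probes.

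Osm, which encodes oncostatin M, had the largest difference of the 9 genes and was lower in ChAT_positive pools. Its levels were -1.08, 0.084, -0.84 and -0.75 in ChAT_positive pools 1 to 4, against 0.28, 0.68, 0.69 and 0.51 in ChAT_negative pools 1 to 4. Every ChAT_positive pool was below every ChAT_negative pool, and ChAT_positive pool 2 stood closest to the other group. The difference was -1.19 on the log2 scale (SE 0.24), which is 2.28-fold lower. Before scaling, the same probe read 1123, 1862, 1027 and 1565 intensity units in ChAT_positive pools, against 2590, 3347, 5058 and 3007 in ChAT_negative pools, so the groups were also apart without any scaling between arrays. Of all genes tested, 2.17% had a lower difference than Osm.

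Lif, which encodes leukemia inhibitory factor, was the other gene with a lower mean beyond 0.5. Its levels were -2.0, -1.13, -2.51 and -1.94 in ChAT_positive pools, against -1.51, -0.98, -1.33 and -1.03 in ChAT_negative pools. The groups overlapped, because ChAT_positive pool 2 was above ChAT_negative pools 1 and 3. The difference was -0.68 (SE 0.27), which is 1.6-fold lower. For both ligands the highest ChAT_positive pool was pool 2, which lay 0.73 above the group mean for Osm and 0.77 above it for Lif. Without that pool the difference was -1.43 for Osm and -0.94 for Lif.

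**Figure D1:**
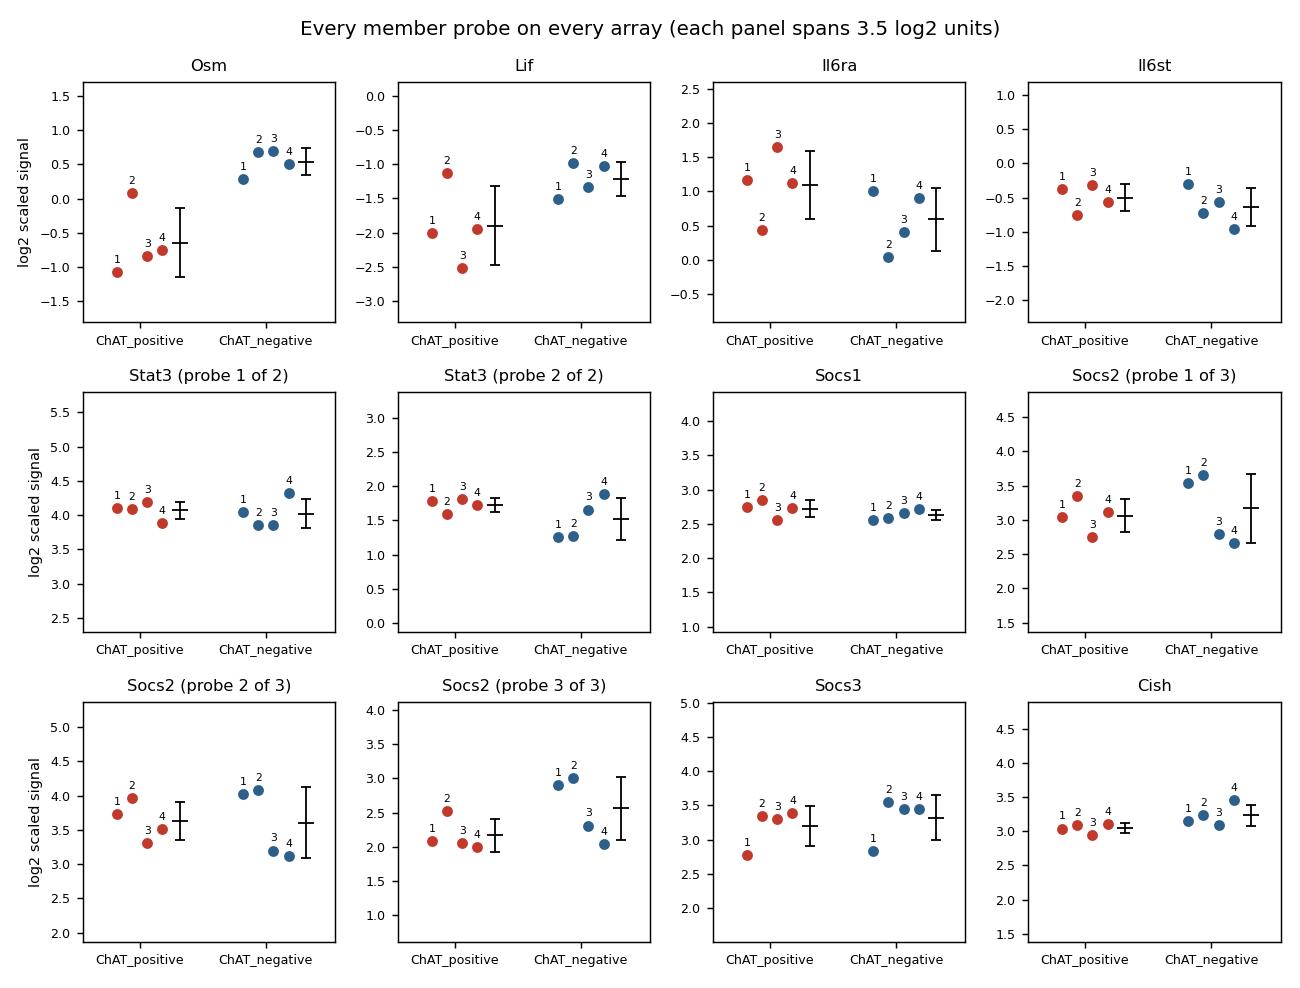
Log2 scaled signal (y axis) of each of the 12 probes in ChAT_positive pools (red) and ChAT_negative pools (blue), with pool numbers above the points and the group mean ± SD in black; every panel spans the same range. Osm is the panel in which the groups do not overlap, with ChAT_positive between -1.08 and 0.084 and ChAT_negative between 0.28 and 0.69.

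Osm and Lif are neighbours on chromosome 11, with 0 protein-coding genes between them in the RefSeq table of GRCm38.p6. The genes around them, looked at after these values were seen, did not share their lower means as a block. Castor1, next to Osm, had a difference of -0.34 (SE 0.34), and beyond it Tbc1d10a had 0.17 and Sf3a1 0.34. On the side of Lif, Hormad2 was too dim to test, Mtmr3 had 0.22 and Ascc2 0.40. None of these 5 tested genes passed the limma test at an adjusted p under 0.05.

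Il6ra, the ligand-binding chain of the interleukin 6 receptor, had the highest positive difference of the 9 genes, and its pools overlapped. Its levels were 1.17, 0.44, 1.65 and 1.12 in ChAT_positive pools, against 1.01, 0.038, 0.40 and 0.91 in ChAT_negative pools. Pool 2 was the lowest of each group. The difference was 0.51 (SE 0.29, 95% interval -0.15 to 1.16), about as large as the SD within a group, which was 0.50 in ChAT_positive and 0.45 in ChAT_negative pools. Il6st, the shared gp130 chain, had levels of -0.38, -0.75, -0.31 and -0.56 in ChAT_positive pools, against -0.30, -0.72, -0.56 and -0.96 in ChAT_negative pools. Its difference was 0.13 (95% interval -0.25 to 0.52).

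Stat3, the transcription factor that the receptors activate, was measured by 2 probes of different RefSeq transcripts. The brighter one read 4.10, 4.09, 4.19 and 3.89 in ChAT_positive pools, against 4.05, 3.86, 3.86 and 4.32 in ChAT_negative pools. Its difference was 0.045 (95% interval -0.27 to 0.36), and the range of ChAT_negative pools enclosed that of ChAT_positive pools. The dimmer probe averaged 1.73 ± 0.098 in ChAT_positive and 1.52 ± 0.31 in ChAT_negative pools (SD, n = 4 each), a difference of 0.21 (SE 0.17).

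For the 4 feedback genes the differences by the brightest probe lay between -0.19 and 0.088, and the groups overlapped in all 6 of their probes. Cish, which encodes the inhibitor CIS, came closest to separating them. Its levels were 3.04, 3.09, 2.94 and 3.10 in ChAT_positive pools, against 3.15, 3.24, 3.09 and 3.45 in ChAT_negative pools. The groups met only at ChAT_negative pool 3, which was below ChAT_positive pool 4, and the difference was -0.19 (95% interval -0.45 to 0.08). Socs1, an inhibitor that blocks JAK kinases directly, averaged 2.72 ± 0.13 in ChAT_positive and 2.63 ± 0.073 in ChAT_negative pools (SD, n = 4 each), a difference of 0.088 (95% interval -0.16 to 0.34). By the brightest probe of each gene, the intervals of Socs1, Cish and Stat3 stayed within 0.5 of 0 on the log2 scale. Those of the other 6 genes reached beyond it, and so did that of the dimmer Stat3 probe (-0.18 to 0.59).

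Socs3, the inhibitor that binds gp130 itself, read 2.77, 3.34, 3.30 and 3.39 in ChAT_positive pools, against 2.83, 3.55, 3.45 and 3.44 in ChAT_negative pools. Pool 1 was the lowest in each group, apart from its 3 companions, and the difference between groups was -0.11 (95% interval -0.57 to 0.35). Socs2, an inhibitor best known for damping growth hormone and STAT5 signals, was measured by 3 probes that did not give 1 value. The brightest read 3.74, 3.96, 3.31 and 3.52 in ChAT_positive pools, against 4.02, 4.08, 3.20 and 3.12 in ChAT_negative pools. In both groups pools 1 and 2 were above pools 3 and 4, with the wider spread in the ChAT_negative group (SD 0.51, against 0.28 in ChAT_positive). The group difference was 0.024 (95% interval -0.56 to 0.61). The other Socs2 probes had differences of -0.099 (SE 0.26) and -0.40 (SE 0.24), and in all 3 the ChAT_negative pools 1 and 2 were the highest of their group.

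STAT proteins bind the palindrome TTCNNNGAA, and the promoters of the 9 genes were searched for it where a sequence was at hand. The 2 genes shown are those in which the search found the motif. Of the 9 genes, 7 had a promoter window of 300 bases around the start in the RefSeq table of GRCm38.p6; Osm and Socs2 are the other two. The motif, whose fixed letters read the same on both strands, occurred in 2 of the 7 windows, and 8.3% of all 32851 windows held it. Socs3 had TTCTTAGAA with its first base at -154 relative to the start, within chr11:117969481-117969550 on the minus strand. Cish had TTCCTGGAA from base 1 and TTCTTGGAA from base 12 counted from the start, within chr9:107296654-107296683 on the plus strand. Capitals mark the motif in the stretches below.
Socs3: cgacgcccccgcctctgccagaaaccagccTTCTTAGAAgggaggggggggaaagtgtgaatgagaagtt
Cish: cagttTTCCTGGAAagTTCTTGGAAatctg
These 2 genes had differences of -0.11 and -0.19, as given above.

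Across the 9 genes the median difference was 0.024, beside 0.026 over all genes tested, and 6 of the 9 lay within 0.25 of 0. In the limma fit across all genes, 1 of the 9 was called at an adjusted p under 0.05, Osm, and 5.96% of all genes were called (2.81% higher and 3.15% lower in ChAT_positive pools). The groups did not overlap for 1 of the 9, again Osm, and for 15.5% of all genes (9.37% higher and 6.14% lower in ChAT_positive pools). Since the genes were chosen on this contrast, neither count is read as a result. The Osm call held without ChAT_positive pool 2 or ChAT_negative pool 1 and was lost without any other single array, with adjusted p up to 0.0866; it was also lost under median scaling (0.069) and with dim probes kept in the fit (0.066). Scaling by the array median moved the median of all genes to 0.24. The scalings differ by a constant per array, so a difference relative to the median of all genes is the same under both by construction. For Osm it was -1.22, for Lif -0.71 and for Cish -0.21, and this equality says nothing on how firm the Osm call is.

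**Figure D2:**
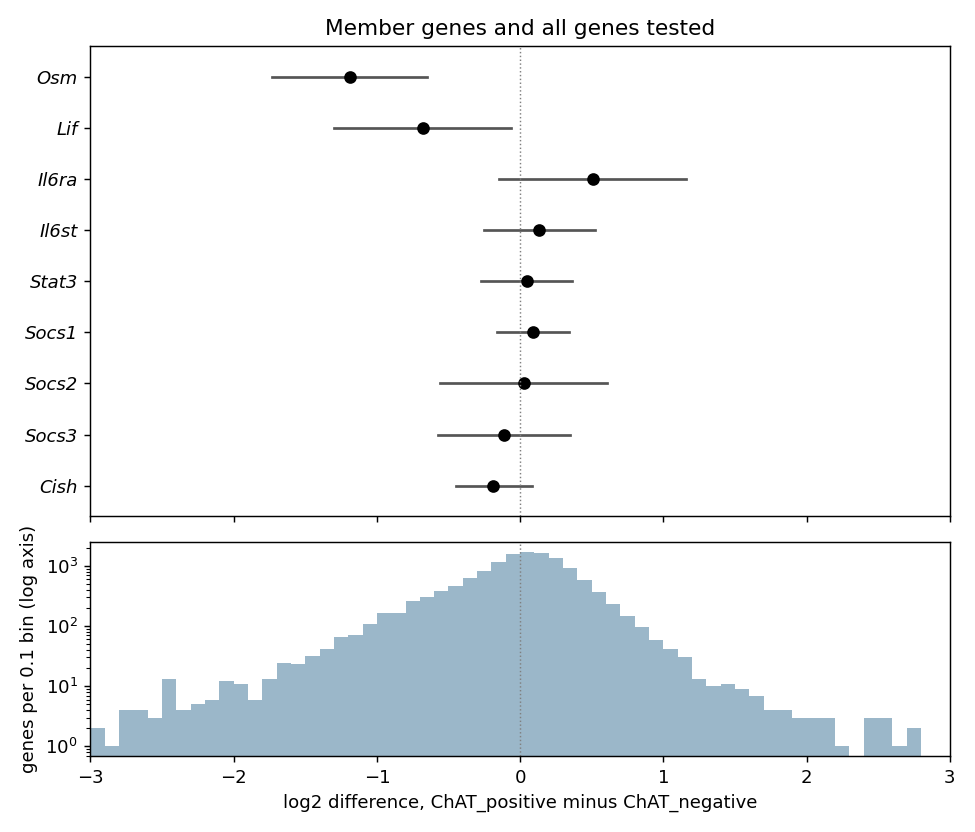
Upper panel, log2 difference of ChAT_positive minus ChAT_negative pools (x axis) for each of the 9 genes by its brightest probe, with 95% intervals from limma. Lower panel, the same difference for all 13607 genes (number per bin on a log axis; the x axis stops at 3 in either direction). Osm at -1.19 and Lif at -0.68 stand left of the other 7, which lie between -0.19 and 0.51.

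The rest of the pathway was described with 6 lists of 77 genes in all, of which 74 could be tested. Of these, 2 fell, Lifr and Cebpd, and 0 rose in the limma test (with p under 0.05 before adjustment, 9 were higher and 7 lower), beside the 5.96% called among all genes. Lifr, the receptor chain that pairs with gp130 to bind LIF, fell by 1.17 (SE 0.18, limma adjusted p = 0.0128). Its levels were -4.87, -4.38, -4.88 and -4.68 in ChAT_positive pools, against -3.60, -3.12, -3.55 and -3.87 in ChAT_negative pools, with no overlap. These signals were dim and close to background, above which the probe stood well on 3 ChAT_positive and 4 ChAT_negative arrays. The other Lifr probes were well above background on 1 and 2 of 8 arrays. Osmr, the receptor chain for oncostatin M, was well above background on 0 of 8 arrays and was not tested.

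Cebpd, a STAT3 target gene that encodes the transcription factor C/EBP delta, fell by 0.80 (SE 0.18, limma adjusted p = 0.0369). Its levels were -2.49, -1.90, -2.40 and -2.12 in ChAT_positive pools, against -1.73, -1.11, -1.46 and -1.40 in ChAT_negative pools. The groups did not overlap. The Lifr call held whichever single array was left out, and under the normexp background correction its difference was -0.61 (adjusted p = 0.0409). The Cebpd call held only without ChAT_positive pool 2 or ChAT_negative pool 1 among the single arrays left out (adjusted p up to 0.108), and was also lost under median scaling (-0.58, adjusted p = 0.15) and with dim probes kept (0.0832).

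No other listed gene passed the limma test. Of 9 ligands and soluble partners, 0 were called; their median difference was -0.086, and at an unadjusted p under 0.05 there were 1 higher and 1 lower. Relative to the median of all genes that list median lay at -0.11 under both scalings and at 0.14 under quantile normalization, so its sign turned with the normalization. Il6, which encodes interleukin 6, averaged 2.09 ± 0.44 in ChAT_positive and 2.15 ± 0.52 in ChAT_negative pools (SD, n = 4 each), a difference of -0.059 (95% interval -0.72 to 0.60). Ebi3, a soluble partner that forms interleukin 27 and interleukin 35, averaged 2.94 ± 0.18 in ChAT_positive and 2.44 ± 0.32 in ChAT_negative pools (SD, n = 4 each; limma adjusted p = 0.122). Of 5 tested receptor chains, Lifr was the one called, and the median was -0.29. Of 9 JAK kinases and other STATs, 0 were called; before adjustment 2 had a p under 0.05, both higher, and the median was 0.041. Jak1, a kinase bound to gp130, had a difference of -0.13 (95% interval -0.39 to 0.13), and Stat4, which acts downstream of interleukin 12 in NK cells, one of 0.064 (95% interval -0.22 to 0.35).

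The remaining SOCS genes, the PIAS proteins and the phosphatases that restrain STAT signals had 0 of 12 called; before adjustment 3 were higher and 0 lower with p under 0.05. All 12 had means above 0, with a median of 0.20, where 53.1% of all genes were above 0; under the normexp correction 10 of the 12 were. Ptpn6, which encodes the phosphatase SHP-1, had a difference of 0.23 (95% interval -0.11 to 0.57) and Ptpn11, which encodes SHP-2, one of 0.14 (95% interval -0.11 to 0.38). Of 20 STAT3 and STAT5 target genes, Cebpd was the one called; the median was -0.14, and unadjusted p-values under 0.05 were found for 2 higher and 3 lower genes. Of 19 tested receptor chains that feed STAT5 or STAT3, 0 were called; the median was -0.16, and 1 higher and 2 lower genes had an unadjusted p under 0.05. Il15ra, the high-affinity chain for interleukin 15, had a difference of -0.16 (95% interval -0.52 to 0.21), and Csf3r, the receptor for G-CSF, one of 0.025 (95% interval -0.31 to 0.36).

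**Figure D3:**
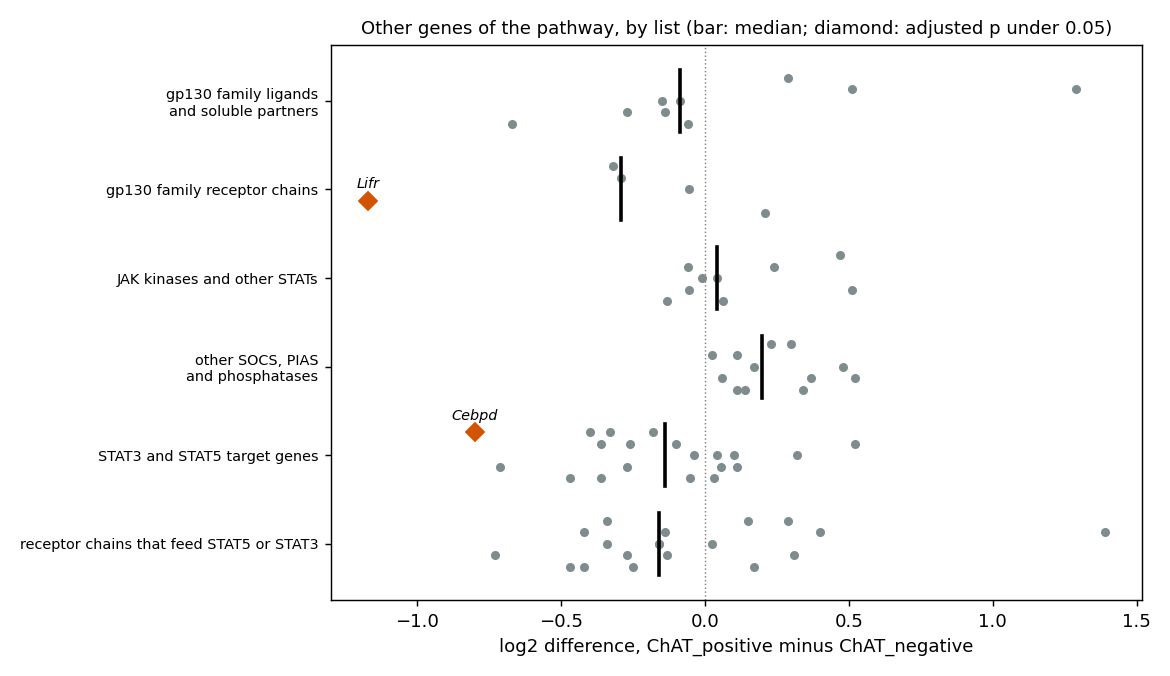
Log2 difference of ChAT_positive minus ChAT_negative pools (x axis) for the 74 tested genes of the 6 lists; black bars are list medians, and orange diamonds are genes with a limma adjusted p under 0.05. Lifr at -1.17 and Cebpd at -0.80 lie left of 0, and no called gene lies right of it.

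Markers of other cell types also differed between the pools, and in bulk RNA fewer cells of a type and less RNA per cell cannot be told apart. The summed scaled signal of 7 tested basophil and mast cell markers ranged from 0.891 to 3.79 in ChAT_positive and from 9.11 to 43.3 in ChAT_negative pools, and 5 of the 7 fell. Cd200r3, a basophil receptor, did not stand well above background on any ChAT_positive array and did so on all 4 ChAT_negative ones. For 8 tested neutrophil markers the sum ranged from 3.09 to 34.6 in ChAT_positive and from 20.4 to 58.9 in ChAT_negative pools, and 3 fell. Monocyte and macrophage markers summed to 11 to 14.1 in ChAT_positive and 15.2 to 18.7 in ChAT_negative pools, with 0 of 7 called. Ccr2 and Csf1r, the brightest of the 7, weighed most in these sums. The 7 did not share a direction: 5 had lower and 2 higher means in ChAT_positive pools. The higher ones were Adgre1 (0.77, SE 0.30) and Cd14 (0.75, SE 0.79). NK markers summed to 148 to 222 in ChAT_positive and 225 to 271 in ChAT_negative pools, and 3 of 12 fell, among them Klrb1c (NK1.1) and Klrk1 (NKG2D). B cell markers went the other way, at 90.9 to 121 in ChAT_positive and 57.1 to 76.9 in ChAT_negative pools, with 5 of 8 higher. Of the 10 lists, basophil, monocyte, NK and B cell sums each had p = 0.0286 in the two-sided exact permutation test, the smallest that 4 against 4 pools allow (0.0714 adjusted over the lists); under median scaling the NK sum had 0.171 and the monocyte sum 0.2.

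The order of pools within a group was not the same for Osm and for the basophil or neutrophil sums. ChAT_positive pool 2 had the highest Osm level of its group at 0.084, and the lowest basophil sum of all 8 pools at 0.891 and the lowest neutrophil sum at 3.09. ChAT_negative pool 2 had an Osm level of 0.68, next to the highest at 0.69, and the lowest basophil sum of its group at 9.11, while pool 1 had the highest basophil sum at 43.3 and the lowest Osm level at 0.28. Monocyte and macrophage sums were 11, 14.1, 11.6 and 12.4 in ChAT_positive pools 1 to 4, which is the order of their Osm levels. The single markers of that list did not all share this order. ChAT_positive pool 2 was the highest of its group for Ccr2 and Csf1r. It was the lowest for Lyz2 (-3.32), Cd14 (-2.87), Adgre1 (-0.85) and Vcam1 (-5.79), and neither for Fcgr1. In ChAT_negative pools 1 to 4 these sums were 15.2, 18.7, 15.4 and 15.8. There pool 1 was the lowest for both, but pool 3, with the highest Osm level at 0.69, had a sum below those of pools 2 and 4. The NK sum was the highest of its group in pool 2 of either group, at 222 in ChAT_positive and 271 in ChAT_negative pools, and Lif was highest in the same pools. The part of any cell type in the differences of Osm, Lif, Lifr and Cebpd was not tested.

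**Figure D4:**
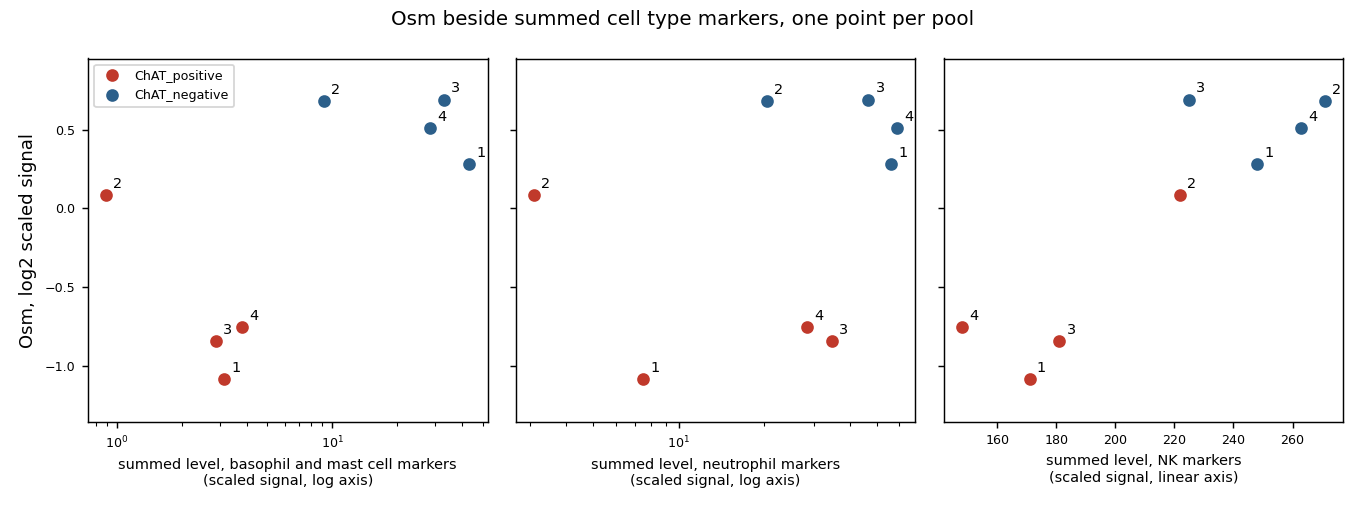
Osm level (y axis, log2 scaled signal) against the summed scaled signal of basophil and mast cell, neutrophil (log x axes) and NK markers (linear x axis), with 1 numbered point per pool, ChAT_positive in red and ChAT_negative in blue. ChAT_positive pool 2 combines the lowest basophil sum, 0.891, with the highest Osm level of its group, 0.084.

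The genes whose values ran closest to those of Osm over the 8 arrays, by the root mean square gap between values centred per gene, were Fam78b (0.15), Col8a2 (0.16), Cd200r4 (0.19), Gipc2 (0.19) and Spin2c (0.20), against a median gap of 0.73 over all genes. For Lif they were Serpinb6d (0.10), Klrc1 (0.14), Cd160 (0.15), Bnip5 (0.15) and Kcnip3 (0.16), against a median gap of 0.57. Of the genes near Lif, Klrc1 encodes the NK receptor NKG2A and Cd160 an NK and T cell receptor, with differences of -0.86 and -0.71. Of those near Osm, Cd200r4 shares its family name with Cd200r3, the basophil receptor named above, and had a difference of -1.26. What these likenesses rest on was not tested. Such gaps are a description over 8 arrays that share their slides by group. The gap includes the difference between the groups, so a near gene has a similar difference by construction.

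**Figure D5:**
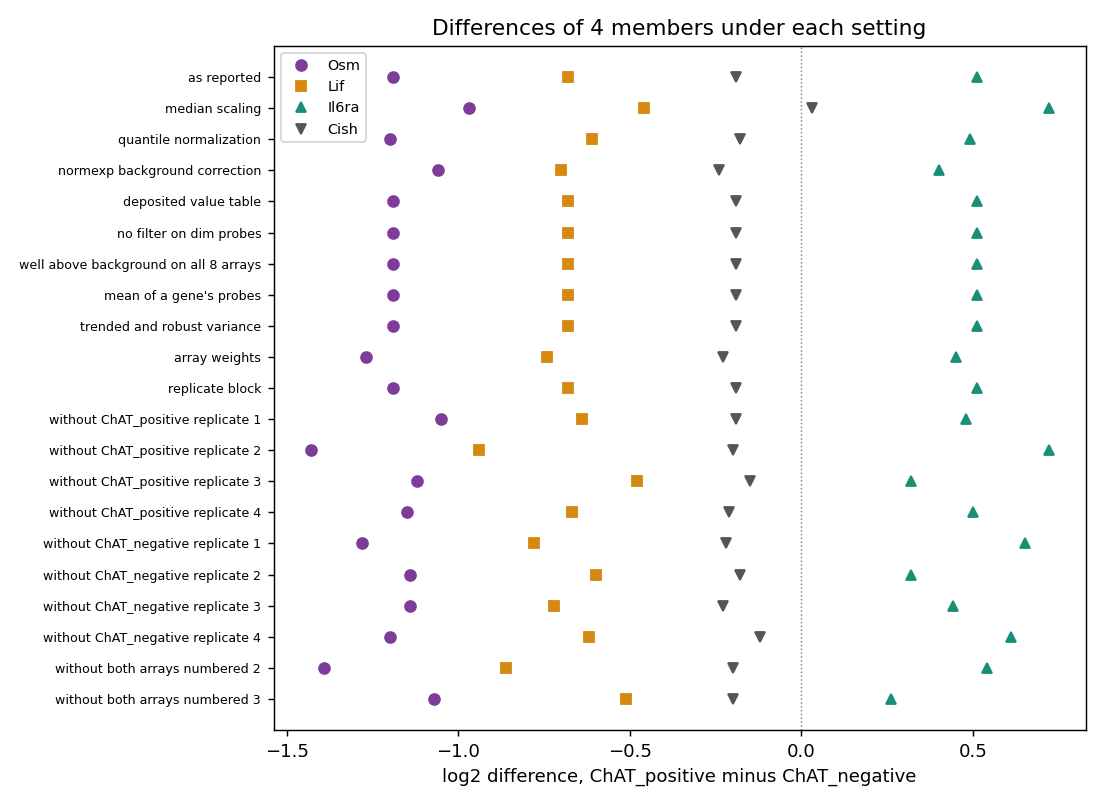
Log2 difference of ChAT_positive minus ChAT_negative pools (x axis) for Osm, Lif, Il6ra and Cish under each setting (rows), from the reported one at the top to those that leave out arrays. Osm stays between -1.43 and -0.97, Lif between -0.94 and -0.46 and Il6ra between 0.26 and 0.72; median scaling moves every gene alike, Cish to 0.03 and the median of all genes to 0.24.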

How the data were processed

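RNA of 8 pools (100 ng of total RNA each, amplified by in vitro transcription per the labels' protocols) was measured on one-colour Agilent arrays. The deposited scanner files hold spot intensities, background-subtracted within each array by Agilent Feature Extraction 11.5.1.1, per the file headers. The deposited value table holds log2 values that follow log2 of the processed intensity less a constant within 0.0065 of the array's 75th percentile; its columns' medians lie between -0.72 and -0.63.

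After removal of control spots, spots of a probe were averaged and the 75th percentile of the averaged probes was subtracted within each array. The scanner software marked 1344 values as outliers. A marked value was left out of the average where the probe had an unmarked spot on that array, and was kept otherwise. Of 55681 probes, 26762 took a gene symbol from their RefSeq accession (version dropped), looked up in a GRCm38.p6 table; the array was designed on an earlier mouse assembly, so no probe positions are given, and promoter coordinates and gene order are those of the RefSeq tables. A probe was kept if at least 4 of the 8 arrays had it well above background, and the brightest probe stood for a gene. Groups were compared with limma 3.58.1 in R 4.3.3 (a linear model per gene with empirical Bayes variances, no block), and two-sided p-values were adjusted by the Benjamini-Hochberg method across 13607 genes, with calls at an adjusted p under 0.05. The fit was tested on simulated data. How far a signal stands above background plays the part of depth here, and the number of arrays limits the precision.

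One gene of the pathway is not reported here and was left out of the pathway lists and their counts. The 9 genes, the lists, the tests and the rule for named genes were chosen with earlier results of these data known. The rule takes the 9 genes, Chat, up to 4 called genes per pathway list or its 2 brightest, 2 genes per marker list, and the 5 genes nearest to each of the 2 members with the largest differences. The text departs from it. Outside the rule it names Osmr, the neighbours of Osm and Lif, and monocyte and macrophage markers other than Adgre1 and Ccr2. For several marker lists it names fewer than 2 genes. Marker lists of T cells, innate-like lymphocytes, dendritic cells, platelets and red cells had summed-level differences (log2) of -0.12, 0.24, -0.18, -1.11 and -0.56, with exact permutation p = 0.629, 0.114, 0.371, 0.0571 and 0.114. Alternatives changed the scaling, background correction, filter, probe choice, variance model, weights and block, used the deposited table, or left out arrays.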

Additional observations from a re-analysis of the deposited data

Results flagged for a closer look

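Among 50 groups of 4 pools looked at for one value far from the rest, 2 stood out, both for Socs3 and both for the pool numbered 1. In ChAT_positive pools, pool 1 was at 2.77, against 3.30 for the next and 3.39 for the highest. In ChAT_negative pools, pool 1 was at 2.83, against 3.44 for the next and 3.55 for the highest. Chance flags about 1 in 20 such groups.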

How the results depend on the processing

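The signs of Osm, Lif and Il6ra held under every alternative run, with Osm between -1.43 and -0.97, Lif between -0.94 and -0.46 and Il6ra between 0.26 and 0.72. Those of Stat3, Socs2 and Socs3, all near 0, turned when single arrays were left out. Median scaling moved every gene alike and put Cish at 0.03. Relative to the median of all genes Cish lay at -0.21 under both scalings, which follows from the equal shift. Called higher and lower among all genes were 383 and 428 as reported, 512 and 396 under quantile normalization, 211 and 119 when scaled by the median, 98 and 125 when dim probes were kept, and 1002 and 1340 with the replicate number as a block. Array weights gave 577 higher. Of the 9 genes, 1 was called lower as reported, 0 under median scaling or with no filter, and 2 with the block (Osm and Lif, adjusted p = 0.00537 and 0.0396). Pathway genes higher numbered 0 as reported, 1 under quantile normalization, with a gene's probes averaged or with array weights, 7 with the block and 3 with a trended, robust variance. Lower were 2 as reported, 1 under median scaling, with no filter, with all 8 arrays above background or with every probe tested, 4 with array weights and 5 with the block. Same-numbered pools deviated together with r = 0.54, 0.66 and 0.52 for numbers 1 to 3, and with r = 0.032 for number 4, over 13607 genes. Of the ChAT_positive pools, 3 of 4 correlated best with their own number. Whether the numbers pair the pools is undecided, and the reported fit has no block. With 1 array left out, 94 to 306 genes were higher and 116 to 425 lower, 0 to 2 of the 9 genes lower (2 without ChAT_positive replicate 2, 0 without any other except ChAT_negative replicate 1, which kept 1), 0 to 1 pathway genes higher (1 without ChAT_positive replicate 1), 1 to 4 lower (4 without ChAT_negative replicate 1, 2 without ChAT_positive replicate 2, 1 without any other), and Chat stayed between 0.99 and 1.26. The Chat call was lost with no filter (1.1, adjusted p = 0.0532), without ChAT_positive replicate 3 (0.0623) or ChAT_negative replicate 4 (0.0646). Chosen after seeing the data, leaving out both arrays numbered 2 gave 192 genes higher; leaving out both numbered 3 gave 21 higher and 35 lower, 0 of the 9 genes, 0 pathway genes either way (Lifr adjusted p = 0.104) and Chat at 1.00 (0.118). Under median scaling the summed-level differences were -0.28 for NK (exact p = 0.171), -0.19 for monocyte (0.2), 0.46 for innate-like lymphocyte (0.0286), 0.10 for T cell and 0.038 for dendritic cell markers. Why these values moved was not tested. No slide held both groups, so slide could not be a block.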
